A study of Mus with 6 samples.

Results

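Slc10a4 and 9 genes of acetylcholine signalling (Chat, Slc18a3, Slc5a7, Ache, Chrm1, Chrm2, Chrm3, Chrna7 and Chrnb2) were examined in the hippocampus of mice with and without forced swim stress (FSS). A gene was represented by the row of the array table that carries its symbol alone, or, where several rows did, by the one with the highest average over all mice. Each of the 10 genes had exactly 1 such row among 21789 rows with a single gene symbol, which cover 19938 genes. Slc10a4 was picked because it had been called higher in FSS mice in this same comparison, so its difference is given as a description without a test. The other 9 genes were picked for their function.

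The mice were C57BL/6JJmsSlc, aged 10 to 11 weeks according to the labels. All were male. The 3 FSS mice were made to swim for 11 min daily on 5 consecutive days in water of 25 °C, and the 3 control mice were not. The labels give no other treatment, and the study tested behaviour by tail suspension before the tissue was taken. Each GeneChip Mouse Gene ST array held the hippocampal RNA of 1 mouse. The deposited values are log2 levels made by robust multi-array averaging (RMA), which brings the arrays to a common distribution and condenses the probes of a transcript cluster into 1 value. A difference of 1 on this scale is a doubling.

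Acetylcholine is made from choline and acetyl-CoA by choline acetyltransferase, loaded into synaptic vesicles, released, and split in the synaptic cleft by acetylcholinesterase. The choline is taken up again into the terminal. Most cholinergic fibres of the hippocampus come from cell bodies in the medial septum and diagonal band, so the mRNA for synthesis and loading lies mainly outside the dissected tissue, whereas receptors for acetylcholine are made by hippocampal neurons themselves. The receptors are either muscarinic, coupled to G proteins, or nicotinic, which are ion channels made of 5 subunits.

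The arrays had closely matched medians over all 28944 rows, from 7.32 to 7.35, but fell apart by the spread of their values. The SD over all rows was 2.22 to 2.23 for FSS mouse 2 and control mice 1 and 2, and 2.26 to 2.27 for FSS mice 1 and 3 and control mouse 3. All 8 measured markers of dentate granule cells and all 8 of pyramidal cells lay above the median level of the table. All but 1 of 7 thalamic and all but 1 of 5 striatal markers did too, so such levels are not particular to the hippocampus. Of the 21789 rows, 0.0688% (15 rows) were called, meaning a log2 fold change over 0.5 in size with an unadjusted p under 0.05 from limma, a linear model that moderates the variance of each gene with that of all genes. An unadjusted p under 0.05 alone was reached by 5.14% of the rows, and an adjusted p under 0.05 (Benjamini-Hochberg) by 0%, the smallest being 0.872. The FSS and control groups did not overlap for 10.3% of the rows.

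SLC10A4 is a membrane protein of synaptic vesicles in cholinergic and monoaminergic neurons. It belongs by sequence to the family of sodium-bile acid cotransporters, although its substrate is not settled. The log2 level of Slc10a4 was 5.74, 5.24 and 5.98 in control mice 1, 2 and 3, and 6.28, 5.94 and 6.35 in FSS mice 1, 2 and 3. FSS mice 1 and 3 lay above all other mice and control mouse 2 lay far below, but the groups overlapped, since FSS mouse 2 was below control mouse 3. Control mice had a mean of 5.65 ± 0.38 (SD, n = 3), and FSS mice one of 6.19 ± 0.22 (SD, n = 3). The log2 fold change of 0.54 (standard error, SE, 0.20) is a 1.46-fold higher level in FSS mice, and 5 rows of the table rose more. Slc10a4 was the 1 member called among 10, against 0.0688% of all rows, and nothing is read from this count because the call led to the choice of the gene.

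The error of this difference was large. The SE of Slc10a4 was at percentile 99.2 of all rows, and its levels spanned 1.11 on the log2 scale over the 6 mice. Its mean level was at percentile 22.1 of the table, in the low range of the array. Without control mouse 2, the mouse with the lowest level, the difference was 0.34 and the gene was not called. It was also not called without FSS mouse 1 (0.50, SE 0.24) or without FSS mouse 3 (0.46, SE 0.23). In these 3 fits it missed both the fold and the p threshold. Nor was it called with the variance of the gene alone in place of the moderated variance (SE 0.25). Leaving out control mouse 3 gave the largest difference, 0.71.

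The level of Slc10a4 also moved with the spread of the arrays. The 3 arrays of wider spread had levels from 5.98 to 6.35, all above the 3 arrays of narrower spread, which had levels from 5.24 to 5.94. Within the wider arrays the FSS mice were higher by 0.34 (2 FSS mice and 1 control mouse), and within the narrower arrays by 0.46 (1 FSS mouse and 2 control mice). With this split as a block in limma the difference was 0.40 (SE 0.14), below the threshold of 0.5. Each part rests on a single mouse in 1 of its groups, and the values are those that led to the choice of the gene. Within the same parts, FSS minus control (log2) changed sign between the wider and the narrower arrays for Chat (0.11 and -0.0088), Slc18a3 (-0.23 and 0.088) and Slc5a7 (0.056 and -0.084), 3 genes of acetylcholine synthesis, loading and choline uptake.

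A second row of the table carries the symbol Slc10a4 together with Slc10a4l, and was therefore left out of the fit. In the RefSeq gene table of assembly GRCm38.p6, Slc10a4l is a transcribed pseudogene on chromosome 5, the chromosome of Slc10a4, with 6 other genes listed between them. The log2 level of the shared row was 6.78, 6.75 and 6.68 in control mice 1, 2 and 3, and 7.05, 6.62 and 6.66 in FSS mice 1, 2 and 3. Only FSS mouse 1 stood out, and the other 2 FSS mice lay below all control mice. The difference of the shared row was 0.041 (SE 0.12), 0.50 less than that of the row of Slc10a4 alone. Control mouse 2, the lowest mouse in the first row, lay between the other 2 control mice in the shared row. How the signals of the gene and of the pseudogene divide between these rows was not tested.

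**Figure D1:**
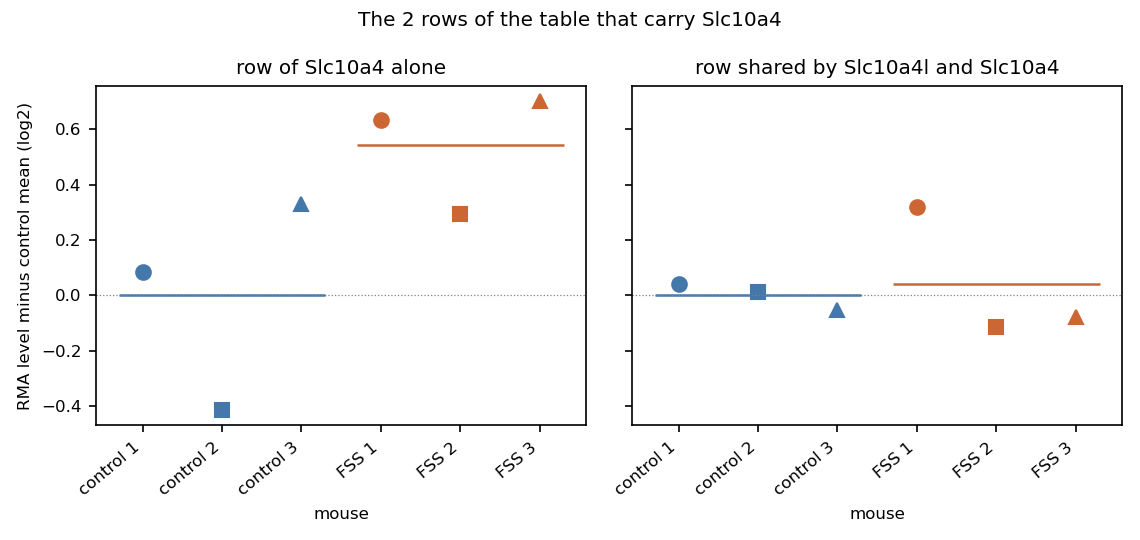
RMA level minus the control mean (y axis, log2) of each mouse (x axis) for the row of Slc10a4 alone (left) and the row shared by Slc10a4l and Slc10a4 (right). Points are mice, horizontal lines are group means, and the FSS mean is 0.54 above the control mean on the left and 0.041 above it on the right.

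The other genes of synthesis and vesicle loading did not share the pattern of Slc10a4. Chat encodes choline acetyltransferase, the enzyme that makes acetylcholine. Its log2 level was 5.72, 5.90 and 5.74 in control mice and 5.86, 5.81 and 5.84 in FSS mice, each in the order 1, 2 and 3. The FSS mice lay inside the range of the control mice. FSS minus control was 0.046 on the log2 scale for Chat (SE 0.059, adjusted p = 0.973 in limma), with a 95% interval from -0.095 to 0.19.

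Slc18a3 encodes the vesicular acetylcholine transporter, which fills synaptic vesicles with acetylcholine. In the RefSeq table it lies wholly within Chat on chromosome 14, an arrangement known as the cholinergic gene locus. The log2 level of Slc18a3 was 6.40, 6.60 and 6.48 in control mice and 6.25, 6.59 and 6.26 in FSS mice. FSS mice 1 and 3 were lower than every control mouse, whereas FSS mouse 2 lay just below the highest control mouse. Slc18a3 differed by -0.13 (log2 fold change, SE 0.10, adjusted p = 0.965 in limma), with a 95% interval from -0.38 to 0.12. Slc18a3 was the 1 member besides Slc10a4 that passed an unadjusted p of 0.05 in any alternative fit. Without FSS mouse 2 its log2 fold change was -0.24 (unadjusted p = 0.0154, adjusted p = 0.657 from limma).

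The order of the mice for Slc18a3 ran against that for Slc10a4. FSS mice 1 and 3 had the highest levels of Slc10a4 and the lowest levels of Slc18a3, and control mouse 2 had the lowest level of Slc10a4 and the highest level of Slc18a3. This is a description of 6 mice.

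Slc5a7 encodes the high-affinity choline transporter of cholinergic terminals, which brings choline back for synthesis. Its log2 level was 6.16, 6.15 and 6.05 in control mice and 6.14, 6.07 and 6.08 in FSS mice. The levels of the groups were intermixed, and Slc5a7 differed by -0.024 (SE 0.049, adjusted p = 0.984 in limma), with a 95% interval from -0.14 to 0.093. The rows of Slc10a4, Chat, Slc18a3 and Slc5a7 lay between percentiles 20.5 and 30.3 of the table, so all were dim on these arrays. Since probes differ in how strongly they respond, their levels cannot be set against each other.

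**Figure D2:**
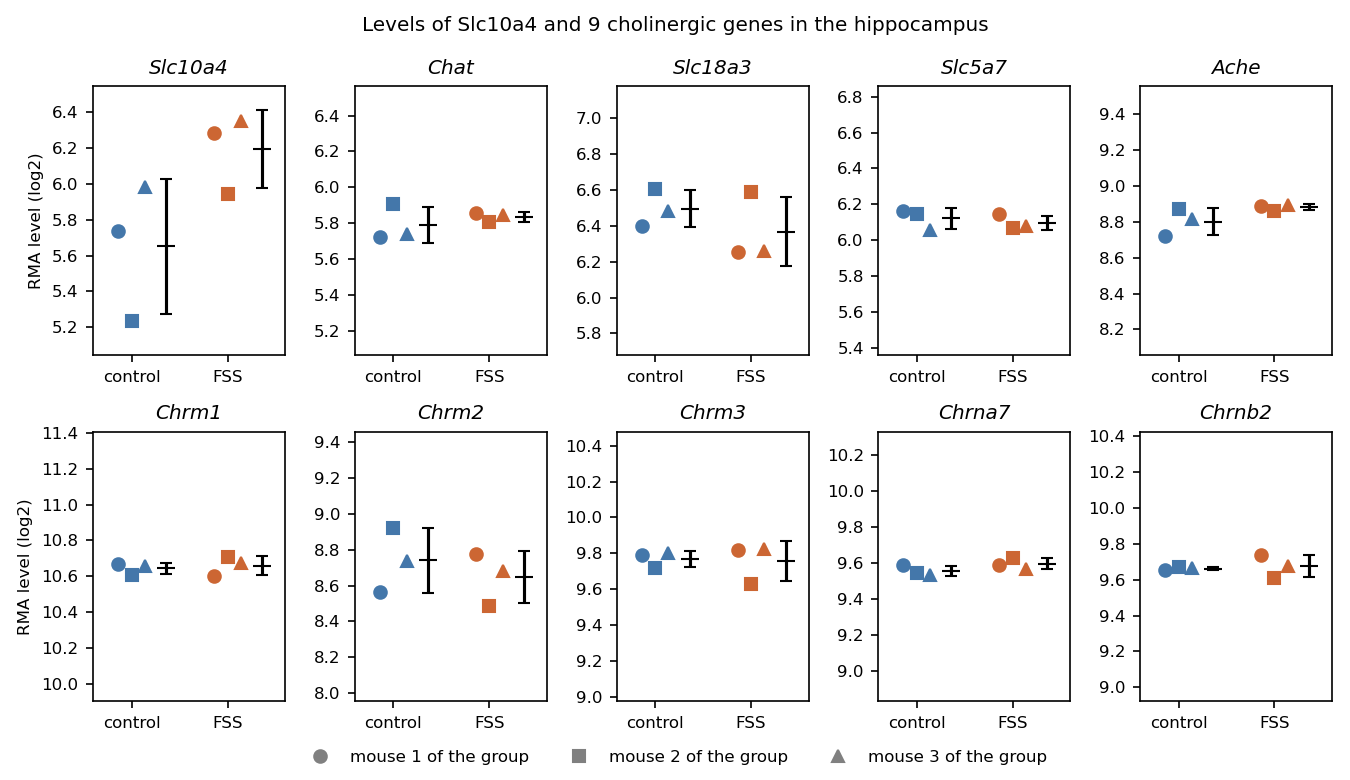
RMA level (y axis, log2) of the 10 genes in control and FSS mice (x axis). Points are mice, black marks with bars give the mean ± SD of each group (n = 3), and every panel spans the same height in log2 units. Slc10a4 has the widest scatter, from 5.24 in control mouse 2 to 6.35 in FSS mouse 3.

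Ache encodes acetylcholinesterase, which ends transmission by splitting acetylcholine. Its log2 level was 8.72, 8.87 and 8.81 in control mice and 8.89, 8.86 and 8.89 in FSS mice. FSS mice 1 and 3 lay just above all control mice and FSS mouse 2 lay just below control mouse 2, so that the groups overlapped by a narrow margin. Ache differed by 0.079 (log2, SE 0.051, adjusted p = 0.945 in limma), with a 95% interval from -0.042 to 0.20. It stayed above 0 in all 16 alternative fits, from 0.038 to 0.11, and passed an unadjusted p of 0.05 in none of them (smallest 0.0757 from limma).

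The muscarinic receptors did not separate the groups. Chrm1 encodes the M1 receptor, the main muscarinic receptor of hippocampal pyramidal cells, which couples to phospholipase C. Its log2 level was 10.67, 10.61 and 10.66 in control mice and 10.60, 10.71 and 10.67 in FSS mice, with the highest and the lowest value both in FSS mice. The difference was 0.016 (log2, SE 0.046, adjusted p = 0.987 in limma), with a 95% interval from -0.094 to 0.13.

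Chrm2 encodes the M2 receptor, an inhibitory autoreceptor of cholinergic terminals that interneurons also carry. The log2 level of Chrm2 was 8.56, 8.92 and 8.73 in control mice and 8.77, 8.49 and 8.68 in FSS mice. The mice of both groups were widely scattered, with control mouse 2 highest and FSS mouse 2 lowest. FSS minus control was -0.091 (log2, SE 0.11, adjusted p = 0.972 in limma), with a 95% interval from -0.35 to 0.17, so that a moderate change in either direction cannot be set aside. Without control mouse 2 the difference was 0.00054.

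Chrm3, which encodes the M3 receptor, another receptor coupled to phospholipase C, had log2 levels of 9.79, 9.72 and 9.80 in control mice and 9.82, 9.63 and 9.82 in FSS mice. FSS mouse 2 was the lowest, and the remaining FSS mice lay slightly above the controls. FSS minus control was -0.010 (log2, SE 0.065, adjusted p = 0.994 in limma), with a 95% interval from -0.17 to 0.14, and it was 0.054 without FSS mouse 2.

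Both nicotinic subunits varied little. Chrna7 encodes the α7 subunit, which forms channels on its own that bind α-bungarotoxin and are abundant in the hippocampus. Its log2 level was 9.59, 9.55 and 9.53 in control mice and 9.59, 9.63 and 9.57 in FSS mice. The FSS mice tended to the upper part of the range, but FSS mouse 3 was below control mouse 1. The difference of 0.041 (log2, SE 0.042, adjusted p = 0.971 in limma) had a 95% interval from -0.059 to 0.14.

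Chrnb2 encodes the β2 subunit, which joins the α4 subunit in the most common high-affinity nicotine receptor of the brain. Its log2 level was 9.65, 9.67 and 9.67 in control mice and 9.73, 9.61 and 9.68 in FSS mice. The control mice were nearly equal and lay within the range of the FSS mice. The difference was 0.013 (log2, SE 0.047, adjusted p = 0.993 in limma), with a 95% interval from -0.099 to 0.12.

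For all 10 genes the groups overlapped, against 10.3% of all rows without overlap. The mean was higher in FSS mice for 6 of the 10 genes and lower for 4, and the median log2 fold change was 0.014, beside 0.0039 over the 19938 genes. Without Slc10a4 the median was 0.013, and the largest difference in size was 0.13, that of Slc18a3. The exact two-sided permutation p of the 9 genes other than Slc10a4 ranged from 0.2 to 1, where 3 mice against 3 allow no p under 0.1. A change in the number of cells and a change in the RNA of each cell cannot be told apart in bulk tissue.

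**Figure D3:**
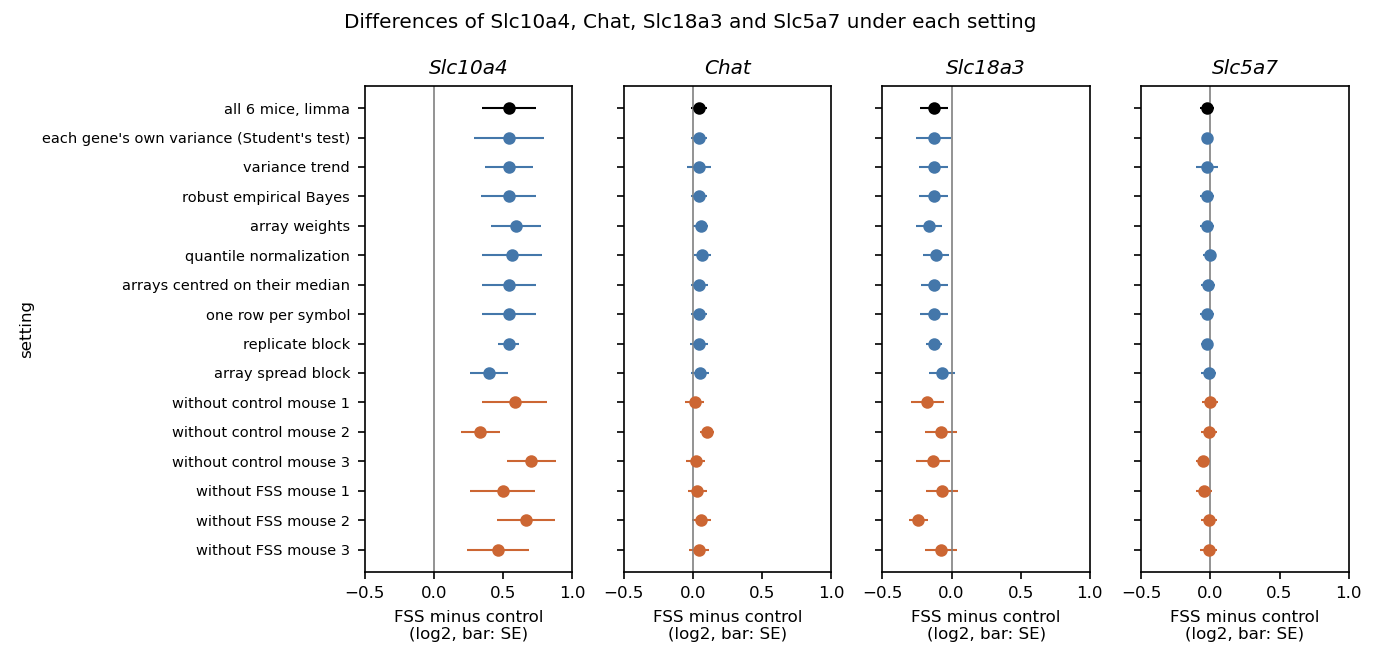
FSS minus control (x axis, log2 fold change) for Slc10a4, Chat, Slc18a3 and Slc5a7 under each setting of the fit (y axis). Points are estimates and bars are SEs, in black for all 6 mice, blue for other models and scalings, and orange for fits without 1 mouse. Slc10a4 ranges from 0.34 without control mouse 2 to 0.71 without control mouse 3, and the other 3 genes lie between -0.24 and 0.10.

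The wider cholinergic system was then described with 35 further genes, of which 34 were measured (Chkb was not). None of the 34 had an unadjusted p under 0.05 from limma, against 5.14% of all rows, and none was called. At that share few genes of a list of 34 would pass, so nothing is read from this count. Below the median level of the table lay 19 of the 34 genes. The mean was higher in FSS mice for 14 of the 34 and lower for 20. The median log2 fold change was -0.014, and the largest difference in size was -0.18. With the variance of each gene alone, Slc44a5 was the 1 gene that passed (log2 fold change 0.057, unadjusted p = 0.041, fitted over all rows with limma but without its moderation).

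Among the genes of breakdown, Bche (butyrylcholinesterase) had a log2 fold change of -0.038, and Prima1, the membrane anchor of brain acetylcholinesterase, one of -0.089. Colq, the collagen tail that anchors the enzyme at the muscle endplate, had one of -0.041. None of these 3 passed, and all lay on the side opposite to Ache. The 2 muscarinic receptors outside the 10 genes were Chrm4, which inhibits adenylyl cyclase (log2 fold change -0.12, SE 0.088), and Chrm5 (0.012, SE 0.058).

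The 16 nicotinic subunits were split evenly, with 8 means higher and 8 lower in FSS mice and a median of -0.00067. Their largest differences were -0.18 for Chrna9 (SE 0.097, limma unadjusted p = 0.102), a subunit known from cochlear hair cells, and 0.13 for Chrna6 (SE 0.078), a subunit of catecholaminergic neurons. Chrna9 and Chrna6 were dim, at percentiles 22.4 and 12.3 of the table, and 12 of the 16 subunits lay below its median level. Chrna4, the usual partner of Chrnb2, differed by -0.086 (log2, SE 0.10). Chrna5 (0.10) and Chrnb4 (-0.12), accessory and habenular subunits of neuronal receptors, did not pass either. Of the 9 accessory proteins, the chaperones Ric3 (-0.0061) and Tmem35a (-0.055) and the receptor modulator Lynx1 (0.029) differed by less than their SEs. The largest differences of this list were -0.084 for Rapsn (SE 0.051) and 0.079 for Ly6e (SE 0.053), and neither passed. The list median was -0.0061.

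Of 6 measured genes of choline uptake and phosphorylation, 2 showed groups without overlap, against 10.3% of all rows, in opposite directions and by small amounts. Slc44a5, a choline transporter-like gene, had log2 levels of 9.94, 9.87 and 9.90 in control mice and 9.95, 9.96 and 9.97 in FSS mice (log2 fold change 0.057, adjusted p = 0.947 in limma). Chka, which encodes choline kinase α, had log2 levels of 9.26, 9.24 and 9.26 in control mice and 9.24, 9.24 and 9.21 in FSS mice (log2 fold change -0.023, adjusted p = 0.978 in limma). Neither passed an unadjusted p of 0.05 in limma. The list median was 0.0074.

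**Figure D4:**
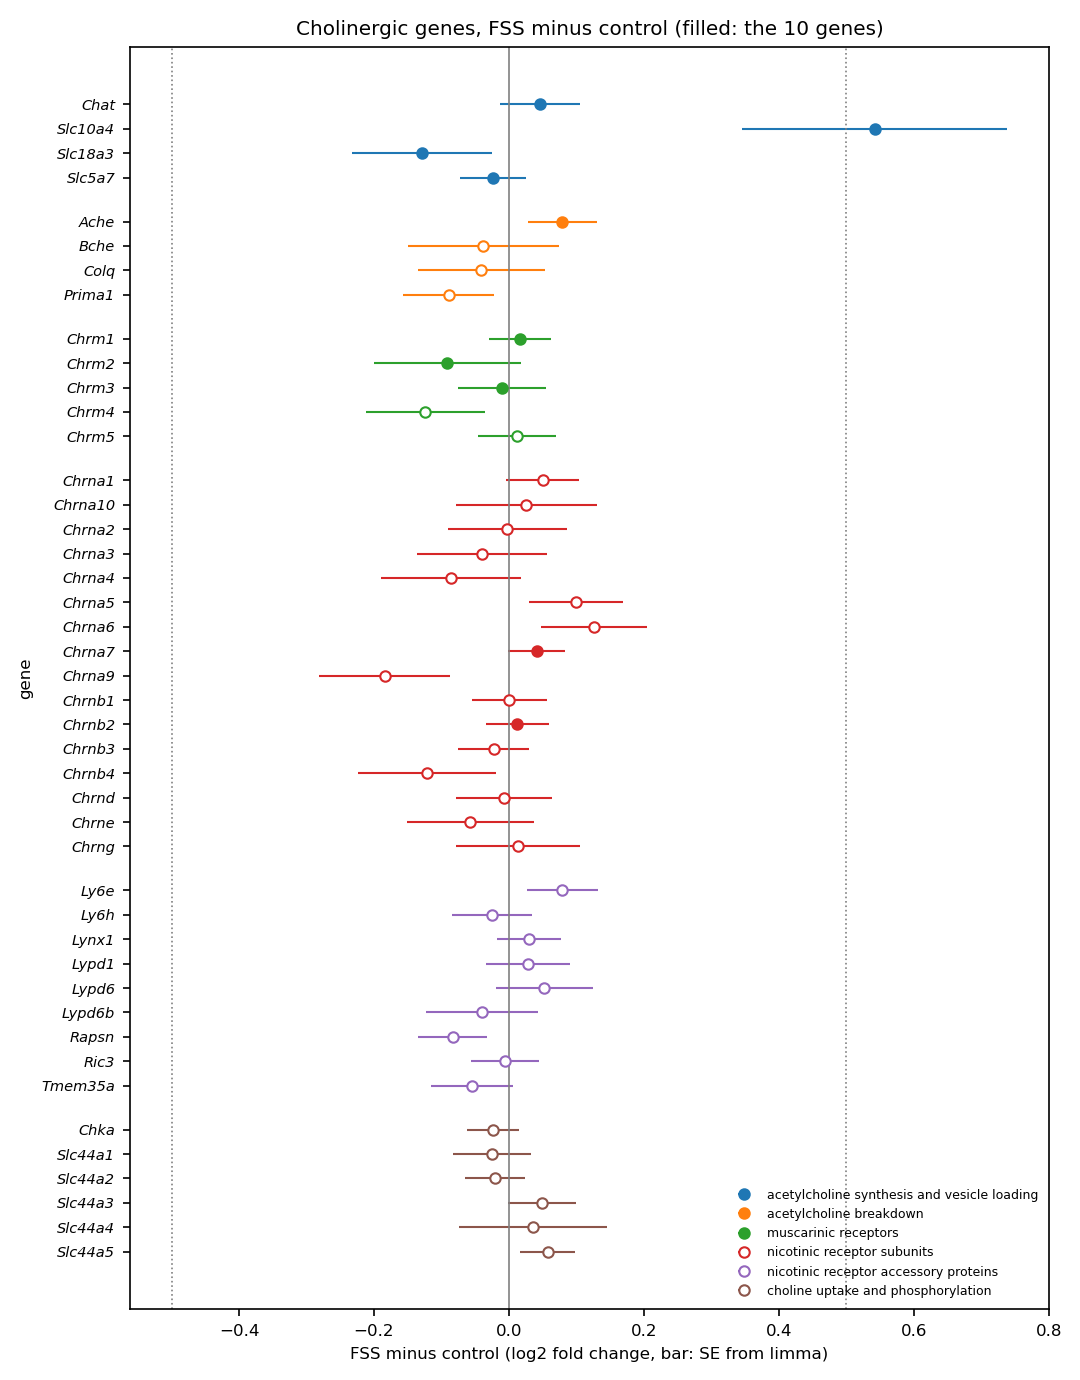
FSS minus control (x axis, log2 fold change) for 44 measured cholinergic genes (y axis) grouped by role. Points are estimates with SEs from limma, filled for the 10 genes and open for the other 34, and dotted lines mark 0.5 and -0.5. Slc10a4, chosen for its difference, lies at 0.54, and the remaining genes lie between -0.18 and 0.13.

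The relatives of Slc10a4 were also described. Of 5 other measured members of the Slc10 family, none had an unadjusted p under 0.05, against 5.14% of all rows. Few genes of a list of 5 would pass at that share, so nothing is read from this count. All 6 measured members, Slc10a4 included, lay below the median level of the table, so a small change in these relatives may not be detectable. Slc10a1, the bile acid carrier of the liver, had a difference of -0.11 (log2, SE 0.099), and Slc10a2, its intestinal counterpart, one of 0.010 (SE 0.073). Slc10a6, a transporter of sulphated steroids, differed by -0.12 (SE 0.17). Slc10a7 (0.048) and Slc10a5 (-0.010) were also close to 0. The genes that flank Slc10a4 in the RefSeq table, among those measured, were Slain2 (log2 fold change 0.030, SE 0.039) and Fryl (-0.0065, SE 0.045), and the groups overlapped for both. Beside the Chat and Slc18a3 locus, 1700024G13Rik (0.051, SE 0.073) and Ercc6 (0.078, SE 0.064) did not pass.

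The neurons that are known to use SLC10A4 were followed by their markers. Of 6 measured genes of basal forebrain cholinergic neurons, none passed an unadjusted p of 0.05, against 5.14% of all rows. Few genes of a list of 6 would pass at that share, so nothing is read from this count. The mean log2 level of the 6 genes was 6.36 to 6.52 in control mice and 6.38 to 6.50 in FSS mice. The defining transcription factors were low in both groups, Lhx8 with a difference of -0.084 (SE 0.070) and Gbx1 with one of -0.046 (SE 0.048). Isl1 had the largest difference, 0.19 (SE 0.13). All 6 lay below the median level of the table. Of 8 genes of monoaminergic neurons, 1 was lower at an unadjusted p under 0.05, against 2.66% of all rows lower at this threshold. It was Dbh, the enzyme that makes noradrenaline, with log2 levels of 5.84, 5.81 and 5.73 in control mice and 5.59, 5.66 and 5.66 in FSS mice (FSS minus control -0.16, SE 0.049, adjusted p = 0.943 in limma). The groups did not overlap for Dbh, but it did not pass without control mouse 1 or FSS mouse 1 (-0.13 for each) or with a variance trend in limma (unadjusted p = 0.09). The mean over the 8 monoaminergic genes was 6.19 to 6.24 in control mice and 6.14 to 6.17 in FSS mice, with a median log2 fold change of -0.016. Slc18a2, the vesicular monoamine transporter, differed by 0.011 (log2, SE 0.14). Every FSS mouse lay below every control mouse in the mean of the monoaminergic genes, and neither group of markers was higher in FSS mice. All 8 monoaminergic genes lay below the median level of the table, so a difference this small in their mean is not read as a change.

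Markers of tissue next to the hippocampus overlapped between the groups in their mean level. Of these markers, 0 passed an unadjusted p of 0.05 from limma, against 5.14% of all rows, and nothing is read from this count. The mean over 6 genes of the medial habenula, which holds cholinergic neurons, was 6.97 to 7.04 in control mice and 6.97 in each FSS mouse. Of the 6 genes, 5 had a lower mean in FSS mice, among them Nwd2 (-0.048, the 1 without overlap). Gng8 was higher and had the largest difference of the list, 0.19 (log2, SE 0.096). Its log2 level was 6.55, 6.64 and 6.62 in control mice and 6.90, 6.57 and 6.90 in FSS mice, each in the order 1, 2 and 3. For 7 thalamic genes the mean was 8.28 to 8.41 in control mice and 8.24 to 8.44 in FSS mice. For 5 striatal genes it was 8.28 to 8.38 and 8.25 to 8.34. Of the cells within the hippocampus, GABAergic interneurons (11 genes, 0 passing) and pyramidal cells (8 genes, 0 passing) also overlapped. Of the pyramidal genes, Fibcd1 (0.061) and Pou3f1 (-0.041) had groups without overlap, against 10.3% of all rows.

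For 3 other lists the mean level was higher in every FSS mouse than in any control mouse. The mean over 9 microglial genes was 8.59 to 8.74 in control mice and 8.75 to 8.84 in FSS mice, with 3 genes higher at an unadjusted p under 0.05 (P2ry13, Trem2 and Cx3cr1) and 0 lower. Over 8 astrocytic genes it was 10.64 to 10.69 and 10.72 to 10.78, with 3 higher (Aqp4, Gfap and Gja1) and 1 lower (Aldoc). Over 8 genes of dentate granule cells it was 9.34 to 9.49 and 9.50 to 9.54. Of these genes, 3 were higher (Plk5, Prox1 and Trpc6) and 0 lower. The dentate ranges barely parted, at 9.494 in control mouse 1 and 9.495 in FSS mouse 1. Over all rows, 2.49% were higher and 2.66% lower at this threshold. The lists were chosen with earlier results of these data known, so nothing is read from these counts. Of 9 genes of choroid plexus epithelium only Ttr passed, and the list means overlapped. Of 7 genes of oligodendrocytes 1 passed, Olig2, and Mobp was lower in every FSS mouse without passing (-0.21), with overlapping list means. The part of these cell types in the difference of Slc10a4 was not tested.

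**Figure D5:**
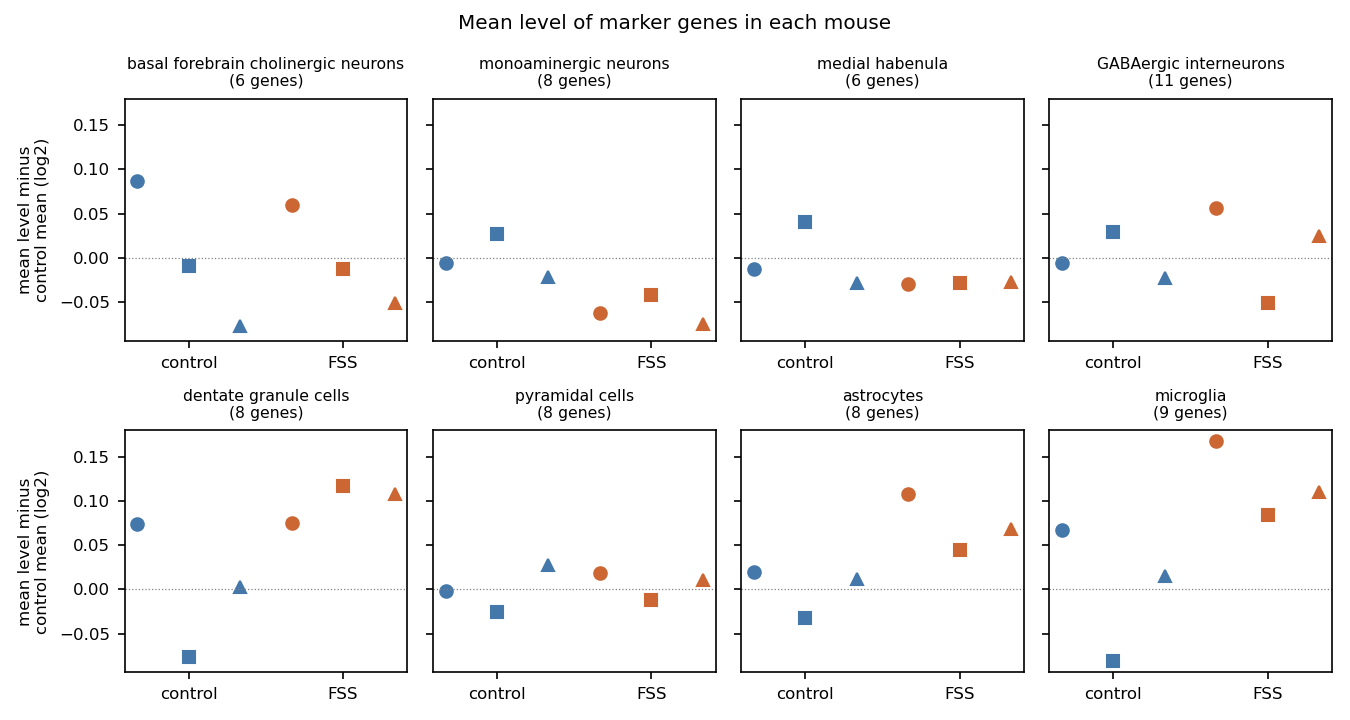
Mean RMA level of marker genes minus the control mean (y axis, log2) in each mouse (x axis, 3 control and 3 FSS mice) for 8 cell types. Points are mice. Basal forebrain cholinergic markers overlap between the groups, whereas the mean of 9 microglial genes is higher in each FSS mouse (8.75 to 8.84 before subtraction) than in any control mouse (8.59 to 8.74).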

How the data were processed

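Mouse Gene ST arrays, read in 1 colour, were used for the hippocampal RNA of 3 control and 3 FSS mice. A further FSS mouse that the study ran on an array is not in the deposited series. According to the study's methods, 3 FSS mice were randomly selected for its figure of expression changes. The values the authors deposited are log2 levels, which the Affymetrix Expression Console computed by RMA according to the submitters' processing notes. Scanner values were not used here. Of 28944 rows, 21789 carry 1 gene symbol, 1621 several and 5534 are unnamed here. By gene ID, 21698 matched RefSeq genes, which changed 0 symbols. The table names no genome build, so no coordinates are given.

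A linear model of the group, without covariates, was fitted to the 21789 rows in limma (version 3.58.1, R version 4.3.3, functions lmFit and eBayes), with Benjamini-Hochberg adjustment over them. The thresholds (log2 fold change over 0.5, p under 0.05) are those of the study. Its methods name, for its data in general, an equal-variance test for unpaired data, which was run here as the fit with each gene's own variance. The genes named are the 10 members, list members with p under 0.05 or without overlap, the 5 genes most like Slc10a4 and gene neighbours. List members outside this rule were named for their role or the size of their difference after their values were seen. The members and lists were chosen with earlier results of these data known. When data of 21789 genes were simulated from the measured means and SDs, 98% of 100 genes changed by 0.5 had p under 0.05, as had 5.37% of the unchanged genes. These are shares over many genes. The share for a gene with an SE as large as that of Slc10a4 (0.20) was not tested. The number of mice, 3 per group, limits the precision.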

Additional observations from a re-analysis of the deposited data

How the results depend on the processing

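The difference of Slc10a4, for which the gene was chosen, is given under other settings as a description. Without 1 mouse it was 0.34 to 0.71. It was not called with the gene's own variance (0.54, standard error 0.25) or with the array spread as a block (0.40), it was 0.041 in the row shared with Slc10a4l, and without dim genes it was not tested. The number of members called was accordingly 0 in these fits, with an adjusted p of 0.05 as the threshold, and 0 or 1 without 1 mouse, and the number with p under 0.05 was 0 with own variances and without dim genes and 0 to 2 without 1 mouse. Of the other cholinergic genes, 1 was higher with own variances, and 0 or 1 was higher and 0 or 1 was lower without 1 mouse. The signs of the smallest differences turned: Chrm3 to 0.014 with array weights, Chrnb2 to -0.0075 with quantile normalization and -0.0041 with the spread block. Without 1 mouse, the range was -0.0069 to 0.045 for Chrm1, -0.18 to 0.00054 for Chrm2, -0.043 to 0.054 for Chrm3 and -0.018 to 0.044 for Chrnb2. Chat, Slc18a3, Slc5a7, Ache and Chrna7 kept their sign in every fit over both kinds of array that held them (Chat, Slc18a3 and Slc5a7 were not held without dim genes), but Chat was -0.0088 and Slc18a3 0.088 within the narrower arrays, and Slc5a7 was 0.056 within the wider ones. Over all rows, 15 were called in the fit reported, 8 with own variances, 4 without dim genes and 11 to 29 without 1 mouse, and 1121 had p under 0.05, against 718 of 10894 without dim genes.

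With the replicate number as a block, Slc10a4 had a difference of 0.54 (standard error 0.075) and the number of members called was 1, as without it. Deviations of same-numbered mice from their group means correlated with r = -0.048, 0.14 and 0.24 over the rows. Control mice 2 and 3, but not control mouse 1, correlated best with the FSS mouse of their own number. With 3 mice per group this cannot show whether the numbers pair the mice, and the fit reported treats them as unpaired. The depth of an array is not known, and the 4 genes of synthesis and vesicle loading are dim, so a small change of theirs may not be detectable with 3 mice per group.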

Other observations

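The genes whose levels over the 6 mice were most like those of Slc10a4 were found by the root mean square difference between centred log2 levels, over 19937 genes. This is a description, with no test, and says nothing of shared function. The 5 nearest were Serpinb1a (0.134), an inhibitor of neutrophil proteases, Rpa3 (0.143), a subunit of the single-strand DNA binding complex, Gm10754 (0.143), Ifit3 (0.151), which interferon induces, and Zfp455 (0.172), a zinc finger gene. The median over all genes was 0.377, and a gene with the same level in every mouse would have 0.370. Each of the 5 was lowest in control mouse 2, as Slc10a4 was, which a choice by likeness to Slc10a4 favours. Serpinb1a had log2 levels of 7.02, 6.41 and 6.86 in control mice 1, 2 and 3 and 7.37, 6.89 and 7.42 in FSS mice 1, 2 and 3, with FSS mouse 2 lower than control mouse 1. Of these 5 genes, Ifit3 was the 1 without overlap between the groups, against 10.3% of all rows. Likeness to Slc10a4, which was picked for its rise, favours such separation too, so nothing is read from this count. The log2 levels of Ifit3 were 7.46 to 8.14 in control mice and 8.18 to 8.44 in FSS mice. The other 9 cholinergic genes ranged from 0.343 (Chrm3) to 0.489 (Slc18a3), and values near 0.370 mostly show that a gene varied little.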
